A study of Mus musculus with 3 samples.

Results

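The Schlafen genes form a mouse family named after the German word for sleeping, because the first members described slow the growth of T cells. Their expression is raised by type I interferons, cytokines that macrophages release after a microbial signal and that act through the receptor chains IFNAR1 and IFNAR2, a transcription factor complex that includes IRF9 and DNA elements called interferon-stimulated response elements (ISREs). The members are grouped by protein length into short proteins (class I, *Slfn1* and *Slfn2*), intermediate proteins (class II, *Slfn3* and *Slfn4*) and long proteins with a helicase-like part (class III, *Slfn5*, *Slfn8* and *Slfn9*). *Slfn2* keeps T cells and monocytes quiescent, and *Slfn4* is a myeloid member that responds to Toll-like receptor ligands.

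The members were taken as all gene probes of the microarray that carry 1 of the 7 symbols *Slfn1*, *Slfn2*, *Slfn3*, *Slfn4*, *Slfn5*, *Slfn8* and *Slfn9*. This gave 7 genes of 26517 with a symbol, and 13 probes of 56605, each of 60 bases and on 1 spot per array. The RNA came from RAW 264.7 cells, a mouse macrophage line, and was hybridised in 1 colour to a SurePrint G3 Mouse GE microarray, with 1 array for each of 3 groups. The first group received LPS, a ligand of TLR4, at 50 ng/mL (LPS), and the other groups were first cultured for 24 h with *L. rhamnosus* CRL1505 or *L. plantarum* CRL1506 at 50000000 cells/mL and then received the same LPS (CRL1505 + LPS and CRL1506 + LPS). The LPS step lasted 12 h by the series design and 3 h by the descriptions of the samples. All 3 groups therefore carry LPS, non-stimulated cells were not analysed here, and a single cell line stands for macrophages.

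With 1 array per group there was no replicate check, and no test was run. Values are log2 signals measured against the 75th percentile of the array (the level), and differences of these levels (the log2 ratio), in which 1 corresponds to 2-fold. As a measure of spread, probes of the same gene differed in their log2 ratio by an SD with a median of 0.23 against LPS in CRL1505 + LPS, 0.21 in CRL1506 + LPS and 0.32 when the strains were compared (the between-probe SD). The SD over repeated spots of a probe was at most 0.048, which describes a single hybridisation only. Neither SD measures variation between cultures or between replicate arrays. The arrays of LPS and CRL1506 + LPS shared a slide and a scan date. The array of CRL1505 + LPS was on another slide with another scan date, so that slide, scan date and CRL1505 cannot be told apart. On an array, 48.5% to 55.3% of gene spots exceeded background well enough to be called. The 9 macrophage markers on the array were well above background on all arrays. Of 4 fibroblast markers, 0 were so in LPS, 1 in CRL1505 + LPS (*Col1a2*) and 3 in CRL1506 + LPS (*Col1a1*, *Col1a2* and *Dcn*), with *Col1a1* at least 3.60-fold and *Dcn* at least 4.12-fold above LPS there. For *Col1a2* the bound against LPS was at least 3.5-fold higher with CRL1505 and at least 1.33-fold higher with CRL1506. Of 4 epithelial markers, *Epcam* was above background in LPS and CRL1506 + LPS. Its log2 ratio to LPS was -1.39 with CRL1506. With CRL1505 *Epcam* was not well above background, and its ratio was a bound of -1.93 or lower. Of the markers of lymphocytes, 4 of 6 for T cells (*Cd3d*, *Cd3e*, *Lck* and *Cd4*) and 1 of 4 for B cells (*Ms4a1*) were also well above background on all arrays. The part of these markers in the Schlafen ratios was not tested. Fewer cells of a type and less RNA per cell cannot be told apart in such samples.

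The promoters of the Schlafen genes differed by class in the short motifs they hold. RefSeq (GRCm38.p6) gave 8 windows for the 7 members, each with 250 bases before and 50 after a transcript start, and 2 of these windows belong to *Slfn8*. The ISRE core GAAANNGAAA, searched on both strands, was in 4 of the 8 windows, namely all those of the long members *Slfn5*, *Slfn8* and *Slfn9*, and in 3.44% of 32851 windows of all genes. The *Slfn8* windows overlap and hold the same core, so that the 4 windows stand for 3 genes. The longest stretch that the other 4 windows share, those of *Slfn1*, *Slfn2*, *Slfn3* and *Slfn4*, was ACTTCCTGG, which holds TTCC, the core of ETS factor sites. On either strand it was in none of the windows of the long members and in 0.843% of all windows. Its presence in those 4 windows follows from how it was chosen, and the motifs do not overlap each other here. A further motif that was searched, the GAS core TTCNNNGAA, was in 0 of the 8 windows and in 8.3% of all windows. A match is a run of letters and not a measured site, and its absence says nothing about other parts of the gene.

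Stretches of 60 bases before the transcript start show the ISRE core and the shared stretch, in capitals, 5′ to 3′ on the strand of the gene. On that strand the ISRE core of *Slfn8* and *Slfn9* reads as its reverse complement, TTTCNNTTTC. The first pair are long members with the ISRE core, at chr11:83020824-83020883 (minus strand) for *Slfn8* and chr11:82991841-82991900 (minus strand) for *Slfn9*, and the core begins at base -48 in *Slfn8* and -45 in *Slfn9*, counted from the start with -1 as the base before it:
Slfn8: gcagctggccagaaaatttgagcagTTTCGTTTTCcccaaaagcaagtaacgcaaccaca
Slfn9: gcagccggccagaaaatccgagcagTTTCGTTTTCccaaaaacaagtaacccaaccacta
The short and intermediate members follow, all on the plus strand, at chr11:83116720-83116779 for *Slfn1*, chr11:83065031-83065090 for *Slfn2*, chr11:83191262-83191321 for *Slfn3* and chr11:83175087-83175146 for *Slfn4*:
Slfn1: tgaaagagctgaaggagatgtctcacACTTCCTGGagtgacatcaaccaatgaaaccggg
Slfn2: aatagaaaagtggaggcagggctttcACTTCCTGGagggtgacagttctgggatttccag
Slfn3: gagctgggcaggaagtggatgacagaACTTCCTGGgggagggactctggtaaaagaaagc
Slfn4: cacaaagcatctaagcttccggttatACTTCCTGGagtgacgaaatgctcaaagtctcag
The windows of *Slfn8* and *Slfn9* were identical at 80.8% of their aligned positions, while the other 20 pairs of members lay between 46.5% and 53.0%.

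For *Slfn5* the stretch from base -165 to base -1 is shown (chr11:82951937-82952101, plus strand), because it holds both the ISRE core, from base -155, and the whole of the brightest *Slfn5* probe of the array, from base -68 to base -9. The first capitals are the ISRE core and the second are the probe:
Slfn5: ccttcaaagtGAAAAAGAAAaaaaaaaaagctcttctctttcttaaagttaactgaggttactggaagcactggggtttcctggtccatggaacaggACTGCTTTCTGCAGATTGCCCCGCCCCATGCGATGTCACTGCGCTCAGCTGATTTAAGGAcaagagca
This probe was designed on an Ensembl transcript and reads a part of the locus that lies before the RefSeq start, whereas 3 of the other 4 *Slfn5* probes were designed on the RefSeq transcript. The value of *Slfn5* depends on which of these probes is read, as described below with the class III members.

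**Figure D1:**
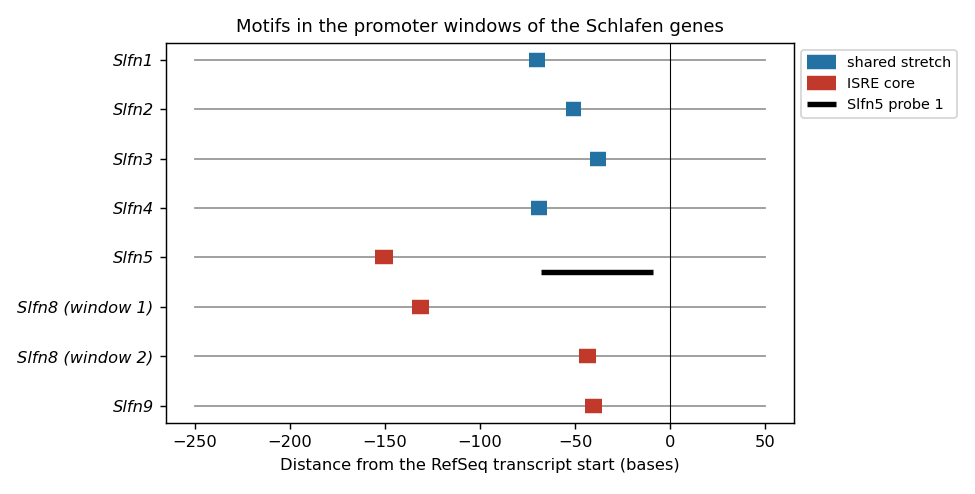
Position of the motifs in the 8 promoter windows of the Schlafen genes, as distance in bases from the RefSeq transcript start (0 on the x axis). Red blocks mark the ISRE core, blue blocks the stretch shared by *Slfn1* to *Slfn4*, and the black bar the brightest *Slfn5* probe, which ends at base -9. *Slfn8* has a window for each of its 2 starts, and they overlap.

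Seen over the whole family, all 7 genes had a log2 ratio above 0 in CRL1505 + LPS against LPS, with a median of 1.01. *Slfn1* entered with a lower bound, which by its construction could only be above 0. Of all 15467 genes compared, 7831 were above 0, and the median over all of them was 0.01. With each gene represented by its brightest probe, 4 of 7 were at least 2-fold higher (*Slfn1*, *Slfn4*, *Slfn8* and *Slfn9*) and 0 were lower, where 9.87% of all genes compared were higher and 8.43% lower. *Slfn1* passed only by its bound, which is also the value of the median. When a probe had to be well above background on all arrays, 3 of 6 genes were higher, with a median of 1.05. Among the 7 genes, the count of higher ones was 1 under spike-in scaling, 2 in the table normalized by the authors and 6 under a shift by the median. Shares over all genes are given for the main setting only. In CRL1506 + LPS against LPS, 6 genes could be compared, 5 of them were above 0, and the median was 0.30. Of all 16132 genes compared, 6883 were above 0, with a median of -0.06. None of the 6 was at least 2-fold higher or lower, where 5.59% of all genes compared were higher and 3.53% lower. Both of these comparisons use the same LPS array. Set against each other, CRL1505 + LPS exceeded CRL1506 + LPS for all 7 genes, again with a bound for *Slfn1*, and the median was 0.74. Of all 15642 genes compared, 8083 were above 0, with a median of 0.03. For *Slfn4* and *Slfn8* the excess was at least 2-fold (2 of 7, where 8.99% of all genes compared were higher). None of the 7 was lower, where 7.4% of all genes were.

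Counted by probe, 7 of the 13 were at least 2-fold higher in CRL1505 + LPS than in LPS, where 9.15% of all probes of genes with a symbol were higher. In CRL1506 + LPS the count was 0 of 11, where that share was 8.13%. Between the strains, 4 of 13 probes were at least 2-fold higher in CRL1505 + LPS, where that share was 7.7%. Of the 13 probes, 11 were well above background on all arrays, and the other 2 (that of *Slfn1* and 1 of *Slfn5*) on the CRL1505 + LPS array only. For those 2 the ratio is a lower bound, taken against the dimmest signal well above background or the signal of the probe itself, whichever was higher.

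**Figure D2:**
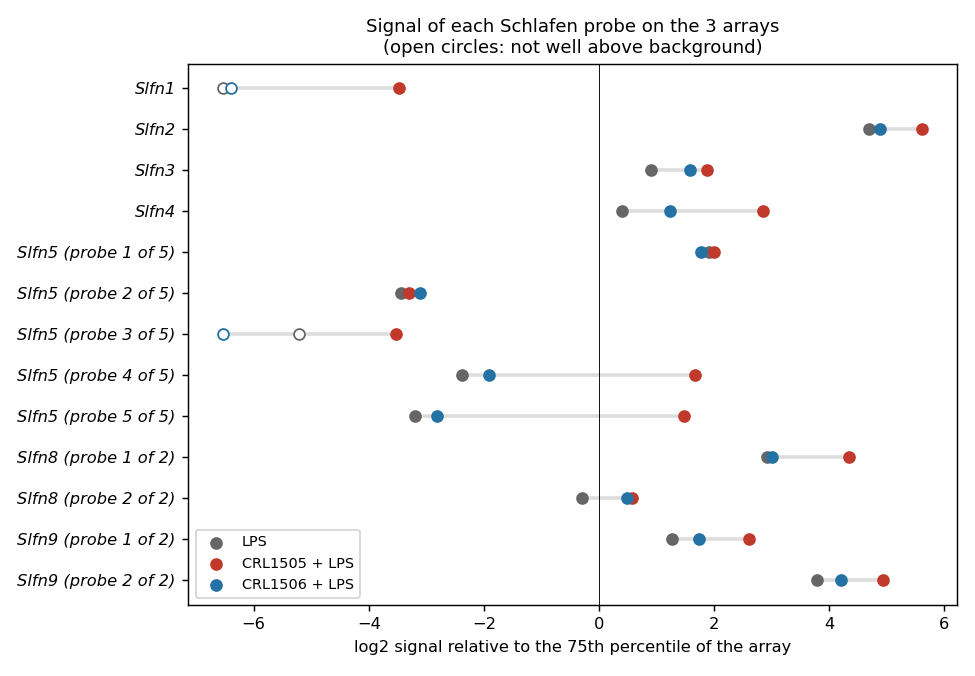
Level of each of the 13 Schlafen probes (x axis, log2 signal relative to the 75th percentile of the array) on the arrays of LPS (grey), CRL1505 + LPS (red) and CRL1506 + LPS (blue), with open circles where the spot was not well above background. The red point is the rightmost one for all probes except the second *Slfn5* probe, at which CRL1506 + LPS is highest. Positions of different probes along the axis are not comparable with each other.

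Among the class I members, *Slfn1*, which slows the growth of thymocytes when overexpressed, was well above background on the CRL1505 + LPS array only. Its level was -6.53 in LPS and -6.40 in CRL1506 + LPS, and -3.47 in CRL1505 + LPS. The bound on its ratio was at least 2.01-fold against LPS, which lies at the threshold and passed it under 3 of 7 other normalizations, and at least 1.90-fold against CRL1506 + LPS. The 60 bases of the probe lie at chr11:82935656-82935715 (mm9, plus strand) on NM_011407.

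The probe of *Slfn2* (chr11:82883791-82883850, mm9, plus strand) had levels of 4.69 in LPS, 5.62 in CRL1505 + LPS and 4.88 in CRL1506 + LPS. CRL1505 + LPS was thus the highest of the arrays, 1.90-fold above LPS and 1.67-fold above CRL1506 + LPS, both short of 2-fold. CRL1506 + LPS and LPS differed by 0.19, which is less than the between-probe SD. The *Slfn2* spot or its surroundings on the LPS array were uneven, and the part of this in the ratio was not tested, since the gene has no other probe.

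Among the class II members, *Slfn4* moved the most. Its probe (chr11:83002974-83003033, mm9, plus strand) gave unscaled signals of 976 in LPS, 3713 in CRL1505 + LPS and 1654 in CRL1506 + LPS, or levels of 0.39, 2.84 and 1.24. CRL1505 + LPS was the highest and LPS the lowest. The log2 ratio was 2.45 for CRL1505 + LPS (5.47-fold) and 0.85 for CRL1506 + LPS (1.80-fold), and the strains differed by 1.60 (3.03-fold). In rank, *Slfn4* stood at 277 from the top of 15467 genes for CRL1505 + LPS and at 1160 of 16132 for CRL1506 + LPS. Over the 7 other normalizations its ratio to LPS ran from 1.94 to 2.75 for CRL1505 + LPS and from 0.65 to 0.93 for CRL1506 + LPS, and CRL1505 + LPS was at least 2-fold above both other arrays under each of them.

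For *Slfn3*, the other class II member, the strains stood close together. Its probe (chr11:83028431-83028490, mm9, plus strand) had a level of 0.91 in LPS, 1.87 in CRL1505 + LPS and 1.58 in CRL1506 + LPS. Both strains were above LPS, by 1.94-fold and 1.59-fold, and they differed from each other by 0.29, which is less than the between-probe SD and ran from -0.10 to 0.78 over the normalizations.

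The class III members differed among themselves and between their probes. *Slfn5*, a long member found in the nucleus, has 5 probes, all on the plus strand of chromosome 11. Going along the gene, probes 1 and 2 (starting at 82765536 and 82765597, mm9) lie next to each other at the start of the locus. Probe 3 (82774907) lies 9371 bases further, probe 4 (82776358) 10822 bases and probe 5 (82778192) 12656 bases from the start of probe 1. Probes 1 and 2 were designed on ENSMUST00000150687 and probes 3, 4 and 5 on NM_183201. Their first 30 bases show what each one reads:
Probe 1: actgctttctgcagattgccccgccccatg
Probe 2: aagagcacacagggtagaggtctccactct
Probe 3: cttttcactagagccagagatatagaaaaa
Probe 4: tcacacattctaatgggtggatcggaacct
Probe 5: tatcaacctgtatcctggtaaacatttcat

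Probe 5 of *Slfn5* gave unscaled signals of 81.6 in LPS, 1442 in CRL1505 + LPS and 99.2 in CRL1506 + LPS. Probe 4 gave 142, 1629 and 185 in the same order. On both, CRL1505 + LPS stood far above the other arrays, which lay close together. The log2 ratio of CRL1505 + LPS to LPS was 4.67 at probe 5 (25.4-fold) and 4.04 at probe 4 (16.5-fold), and that of CRL1506 + LPS to LPS was 0.37 and 0.47. Over the normalizations the ratio for CRL1505 + LPS stayed between 3.73 and 4.96 at probe 5 and between 3.39 and 4.34 at probe 4. Probe 3 was well above background in CRL1505 + LPS only, and its bound was at least 1.94-fold against LPS.

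Probe 1 of *Slfn5*, the one before the RefSeq start, gave levels of 1.91 in LPS, 2.0 in CRL1505 + LPS and 1.77 in CRL1506 + LPS. These levels hardly differed, with log2 ratios to LPS of 0.09 and -0.15, and the ratio of CRL1505 + LPS ran from -0.42 to 0.38 over the normalizations. Probe 2 likewise gave 0.15 and 0.33. Because probe 1 is the brightest of the 5, it represents *Slfn5* in the counts over genes given above. With probe 4, the brightest on the RefSeq transcript, in its place, 5 of 7 Schlafen genes were at least 2-fold higher in CRL1505 + LPS than in LPS, and 3 of 7 were higher than in CRL1506 + LPS. The first of these counts includes *Slfn1* by its bound. This replacement was chosen after the values had been seen. The spot of probe 1 or its surroundings were uneven on the arrays of LPS and CRL1505 + LPS, and the part of this in its ratio was not tested. Probe 2, with no uneven spot, also lay below 2-fold in each comparison. It was dim, however, with levels of -3.45 in LPS, -3.3 in CRL1505 + LPS and -3.12 in CRL1506 + LPS, far below those of probe 1. The probe of the antisense gene *Slfn5os* stayed at background on all 3 arrays.

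**Figure D3:**
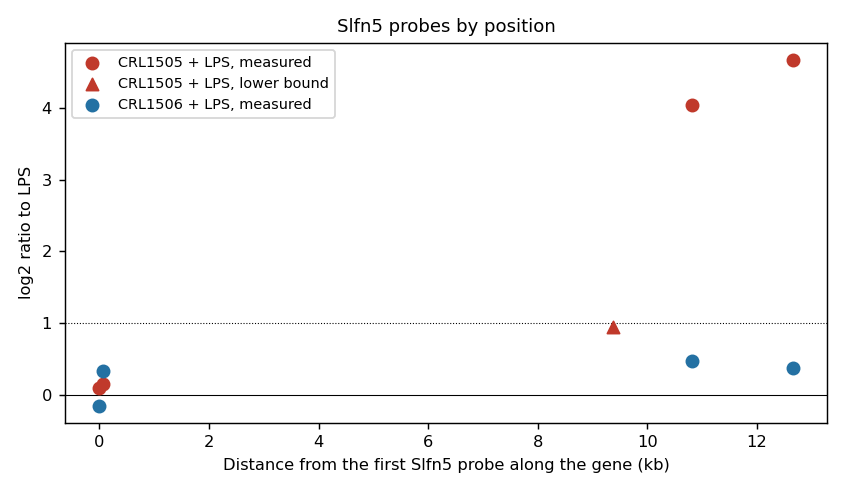
Log2 ratio to LPS (y axis) of the 5 *Slfn5* probes by their distance from probe 1 along the gene (x axis, kb), for CRL1505 + LPS (red) and CRL1506 + LPS (blue), with a triangle for a lower bound and a dotted line at 2-fold. The 2 probes at the start of the locus lie between -0.15 and 0.33 for both strains, and the last 2 probes lie at 4.04 and 4.67 for CRL1505 + LPS against 0.47 and 0.37 for CRL1506 + LPS.

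*Slfn8* was measured by a probe for each of 2 RefSeq transcripts, both on the minus strand. The brighter probe (chr11:82815804-82815863, mm9, on NM_181545) had levels of 2.91 in LPS, 4.35 in CRL1505 + LPS and 3.00 in CRL1506 + LPS. CRL1505 + LPS was the highest, 2.71-fold above LPS and 2.54-fold above CRL1506 + LPS, and the latter differed from LPS by 0.09. Its log2 ratio of 1.44 for CRL1505 + LPS against LPS ran from 0.93 to 1.73 over the normalizations. The second probe (chr11:82830985-82831044, mm9, on NM_001167743) had levels of -0.30, 0.57 and 0.49. There both strains stood above LPS to nearly the same extent, by 1.83-fold for CRL1505 + LPS and 1.73-fold for CRL1506 + LPS, and the strains differed by 0.09. The *Slfn8* probes thus disagreed on the difference between the strains, which was 1.35 at the first and 0.09 at the second.

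*Slfn9*, the neighbour of *Slfn8* with the like promoter, had 2 probes on the minus strand of NM_172796 that gave near values. The brighter one (chr11:82794408-82794467, mm9) had levels of 3.79 in LPS, 4.94 in CRL1505 + LPS and 4.21 in CRL1506 + LPS, and the other (chr11:82793812-82793871, mm9) had levels of 1.26, 2.60 and 1.73. On both, the order was CRL1505 + LPS, then CRL1506 + LPS, then LPS. CRL1505 + LPS exceeded LPS by 2.21-fold and 2.52-fold, CRL1506 + LPS exceeded LPS by 1.34-fold and 1.38-fold, and the strains differed by 1.65-fold and 1.83-fold. At the brighter probe the log2 ratio of CRL1505 + LPS to LPS ran from 0.64 to 1.44 and passed 2-fold under 4 of the 7 other normalizations. Of the relatives outside the 7 members, the pseudogene *Slfn10-ps* had 2 probes with log2 ratios of 1.20 and 0.79 for CRL1505 + LPS and 0.56 and 0.53 for CRL1506 + LPS. *Slfn14* and the Schlafen-like gene *Slfnl1* stayed at background on all 3 arrays. No stretch of more than 9 bases was shared between probes of different Schlafen genes, while binding of a probe to the whole transcript of a relative was not tested.

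**Figure D4:**
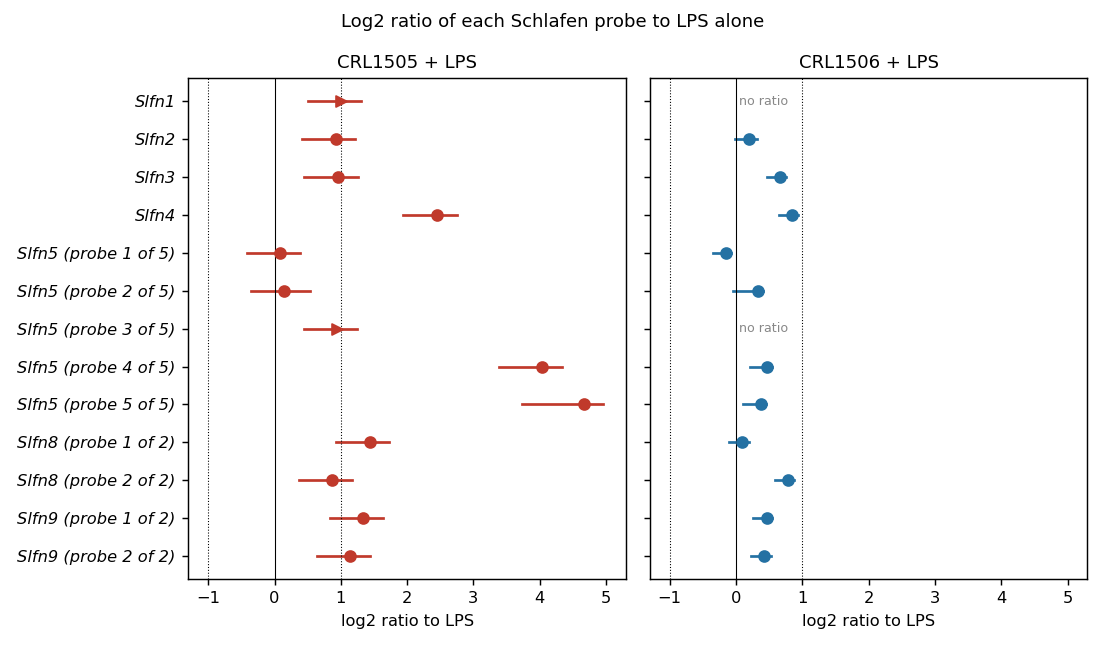
Log2 ratio to LPS of the 13 Schlafen probes (x axis) for CRL1505 + LPS (left) and CRL1506 + LPS (right), with bars from the lowest to the highest value over 7 other normalizations, arrowheads for lower bounds and dotted lines at 2-fold. For CRL1506 + LPS no bar reaches the 2-fold line, and for CRL1505 + LPS the bars of *Slfn4* and of *Slfn5* probes 4 and 5 lie wholly beyond it.

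By size of the ratio to LPS in CRL1505 + LPS, the genes with a measured value followed the order *Slfn4* (2.45), *Slfn8* (1.44), *Slfn9* (1.14), *Slfn3* (0.96), *Slfn2* (0.93) and *Slfn5* at its probe 1 (0.09). The order of *Slfn8* and *Slfn9* depended on the probe, since the second *Slfn8* probe gave 0.87 and those of *Slfn9* gave 1.14 and 1.34, and by the mean over probes *Slfn8* (1.16) lay below *Slfn9* (1.24). *Slfn9*, *Slfn3* and *Slfn2* did not differ beyond the between-probe SD. In CRL1506 + LPS the order was *Slfn4* (0.85), *Slfn3* (0.67), *Slfn9* (0.42), *Slfn2* (0.19), *Slfn8* (0.09) and *Slfn5* (-0.15). With *Slfn5* at its probe 1, *Slfn4* headed both orders, and its neighbour in the second, *Slfn3*, lay within the SD. The place of *Slfn5* in the first order also depended on the probe. At probes 4 and 5 it gave 4.04 and 4.67, above *Slfn4*, and by the mean over its probes 1.98, below *Slfn4*. By class, the median ratio in CRL1505 + LPS was 0.97 for class I, 1.71 for class II and 1.14 for class III, and in CRL1506 + LPS class II stood at 0.76 and class III at 0.09, with *Slfn2* alone measured in class I. The first class I value includes the bound of *Slfn1*, and the class III values take *Slfn5* at its probe 1. With 2 or 3 genes in a class, these medians do not settle an order of the classes.

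The interferon pathway was taken as the setting for these genes. Of 66 pathway genes that could be compared, 53 were at least 2-fold higher in CRL1505 + LPS than in LPS and 0 were lower, with a median log2 ratio of 1.78, where 9.87% of all genes compared were higher. In CRL1506 + LPS, 12 were higher and 1 was lower (*Cxcl9*, a chemokine), with a median of 0.54, where 5.59% of all genes were higher and 3.53% lower. Of the ligands, 8 of 9 were higher in CRL1505 + LPS and 2 of 9 in CRL1506 + LPS. In both comparisons 2 of these 9, *Ifna12* and *Ifna13*, entered with a lower bound, which could only be above 0. *Ifnb1*, which encodes interferon beta, had levels of 1.61 in LPS, 5.08 in CRL1505 + LPS and 3.93 in CRL1506 + LPS, so that both strains were above LPS, by 3.46 and 2.31 on the log2 scale. The receptor genes went in different ways: in CRL1505 + LPS *Ifnar1* had a log2 ratio of 0.46 and *Ifnar2* of 0.87, and in CRL1506 + LPS these were 1.37 and 0.00.

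Among the signal transducers, *Stat2* gave log2 ratios of 1.56 and 0.53 and *Irf9* of 0.42 and -0.16 for CRL1505 + LPS and CRL1506 + LPS. Of the 5 factors that induce interferon, 1 was at least 2-fold higher in CRL1505 + LPS and 0 in CRL1506 + LPS, with medians of 0.14 and -0.51. Of all genes compared, 9.87% and 5.59% were higher in these comparisons, so that the counts over these factors are near those shares. *Irf7* gave 1.90 and 0.87 and *Irf1* gave 0.14 and -0.51. Of the 5 inhibitors, 4 were higher in CRL1505 + LPS and 0 in CRL1506 + LPS, among them *Usp18*, which removes ISG15 and blocks the receptor (2.13 and 0.63), and *Socs1*, which blocks Janus kinases (1.54 and 0.30).

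The 40 interferon targets, none of them a Schlafen gene, had 38 members at least 2-fold higher and 0 lower in CRL1505 + LPS, with a median of 1.95, and 9 higher and 1 lower in CRL1506 + LPS, with a median of 0.59. The shares of higher genes among all genes compared were 9.87% and 5.59%, and 3.53% were lower in CRL1506 + LPS. For CRL1505 + LPS and CRL1506 + LPS, the antiviral gene *Rsad2* gave log2 ratios of 2.36 and 1.11, *Ifit1* of 2.05 and 0.63, *Mx1* of 1.90 and 1.08, *Isg15* of 1.72 and 0.54, *Oasl1* of 1.09 and 0.52, and the chemokine *Cxcl10* of 0.47 and 0.03. Of the Schlafen genes, *Slfn4* (2.45) lay above the median of the targets in CRL1505 + LPS and the other 5 measured genes below it, at their brightest probe. At probes 4 and 5, which are not its brightest, *Slfn5* exceeded the highest target, *Gbp5* (3.31). *Gbp5*, a guanylate-binding protein, was named after its value had been seen. The targets were read at their brightest probe only, and at its own brightest probe *Slfn5* gave 0.09.

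Growth genes were looked at because of the family's link with quiescence. Of 25 compared, 12 were at least 2-fold lower in CRL1505 + LPS than in LPS and 0 were higher, with a median of -0.97, where 8.43% of all genes compared were lower. In CRL1506 + LPS, 0 of 26 were past 2-fold either way, with a median of -0.44, where 5.59% of all genes compared were higher and 3.53% lower, so that the count is near what all genes give. The proliferation marker *Mki67* gave log2 ratios of -1.19 and -0.26 for CRL1505 + LPS and CRL1506 + LPS, the cyclin *Ccnd1* of -0.56 and 0.19, and the cell cycle inhibitor *Cdkn1a* of 0.58 and -0.53. Over the 7 other normalizations *Mki67* ran from -1.7 to -0.9 in CRL1505 + LPS, and so did not pass 2-fold under all of them. The counts of growth genes are given for the main setting only.

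**Figure D5:**
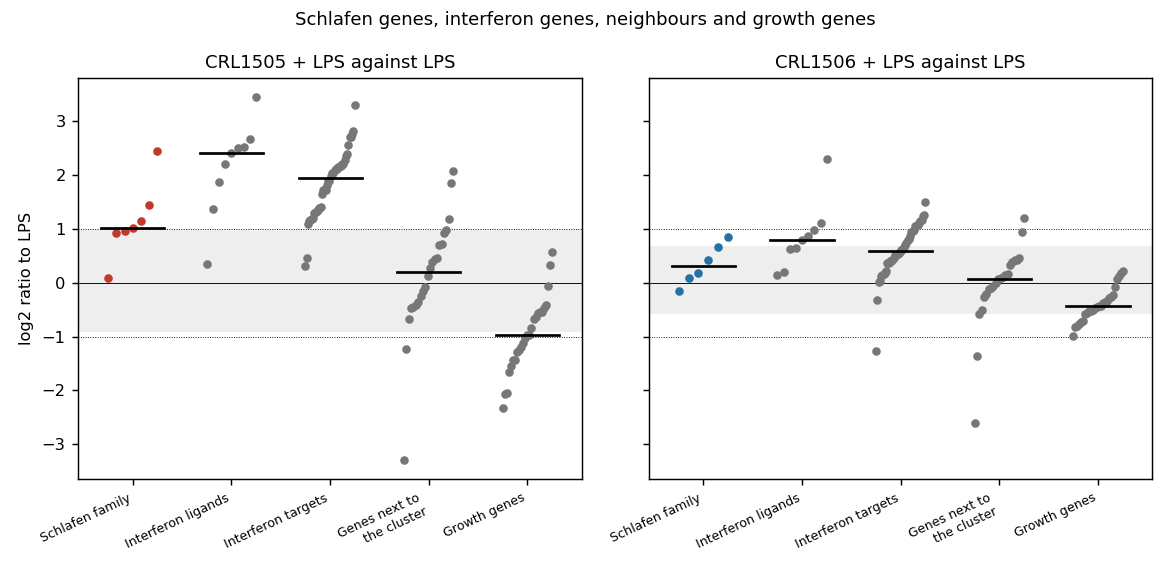
Log2 ratio to LPS (y axis) of each gene, by its brightest probe and with lower bounds included, for the Schlafen family (coloured), interferon ligands, interferon targets, genes next to the Schlafen cluster and growth genes, with CRL1505 + LPS on the left and CRL1506 + LPS on the right. Black lines are medians, the grey band holds the middle 80% of all genes compared and dotted lines mark 2-fold. In CRL1505 + LPS the Schlafen median (1.01) lies between those of the neighbouring genes (0.20) and of the interferon targets (1.95).

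The 7 members lie together on chromosome 11, where their probes span 262955 bases from 82765536 to 83028490 (mm9). Leaving out *Slfn10-ps*, *Slfn14* and *Slfn5os*, 29 other genes lie within 500 kb on either side, and 22 could be compared. In CRL1505 + LPS 3 of these were at least 2-fold higher, namely the chemokine gene *Ccl5* (1.19), *Wfdc17* (1.86) and *Wfdc18* (2.07), and all of them lie more than 300 kb from the cluster. A further 2 were lower, with only a bound (*Cct6b* and *Gas2l2*), and the median over the 22 was 0.20. Of all genes compared, 9.87% were higher and 8.43% lower, so that these counts are near those of all genes. In CRL1506 + LPS *Wfdc18* (1.21) was higher, *Cct6b* and *Gas2l2* were lower, and the median was 0.08, where 5.59% of all genes compared were higher and 3.53% lower. The nearest measured genes outside the family were *Nle1*, 50441 bases before the cluster, with log2 ratios of -0.07 and -0.10 for CRL1505 + LPS and CRL1506 + LPS, and *Snord7*, 79348 bases after it, with -0.42 and 0.42.

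The genes most like each member were sought among 13011 genes well above background on all arrays, by the distance between their pairs of log2 ratios to LPS (CRL1505 + LPS and CRL1506 + LPS, from 3 arrays). Nearest to *Slfn4* were the interferon gene *Ifna5* (2.41 and 0.87), *Herc6* (2.40 and 0.79) and *Dusp10* (2.42 and 0.77), and 13 genes lay within a distance of 0.25. Nearest to *Slfn8* were *Tnfrsf1b*, *Nectin2* and *Pnpt1*, with 109 genes within that distance. For *Slfn9* they were *Srpr*, *Gm17484* and *Jazf1* (164 genes), for *Slfn3* *Fabp5*, *Eml2* and *Speer2* (117 genes), and for *Slfn2* *Col13a1*, *Slc30a7* and *Ghitm* (407 genes). *Slfn5* at probe 1 had *Dnajc10*, *Rpl7a* and *Zbtb9* nearest and 2537 genes within 0.25, a part of the range that many genes share.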

How the data were processed

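RNA of RAW 264.7 cells was measured on 1-colour microarrays, with 1 array for each of 3 groups. The authors deposited the processed signal of each spot, an intensity from Feature Extraction (version 12.0.3.1 in the file header, 10.7.3.1 in the design text) with background subtracted and no normalization between arrays. A second table that the authors deposited holds log2 values normalized between arrays, with a median of 6.77 on each, and served as an alternative. GeneSpring is named for the normalization without settings, and limma is listed in the submitters' processing notes.

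In the main setting, the 75th percentile over gene spots was subtracted from the log2 processed signal. It corresponded to a signal of 743.1 on the LPS array, 517.0 with CRL1505 and 697.9 with CRL1506. Outlier spots were left out, no gene spot was saturated, and the brightest probe represented a gene. Probes well above background on neither compared array got no ratio. A spot was called uneven where the log2 ratio of its mean to its median pixel signal was over 0.2, or where this held for at least 5 of its 20 nearest spots. No t-test, as the study's methods name, could be run on single arrays, and the 2-fold threshold was kept. The number of arrays limits the precision, beside the disagreement of probes and the choice of scaling. A fold change of a bound depends on the dimmest signal well above background.

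The members, lists and alternatives were chosen with earlier results of these data known. The text names all members, set genes of the interferon and growth lists (1 of which is not reported here), the nearest measured neighbours and those past 2-fold, and the 3 genes with the nearest pair of ratios for each member. Alternatives were the median shift, quantile normalization, cyclic loess, the 75th percentile over detected probes, spike-in scaling (272 spots), normexp with an offset of 50, the deposited table, filters on dim, outlying and uneven spots, the mean over probes, and thresholds of 1.5-fold and 4-fold. Promoters came from RefSeq tables (GRCm38.p6), were matched by symbol for 7 of 7 members and were aligned globally with Biopython 1.88. Python 3.11.15, pandas 2.3.3, NumPy 2.4.6, R 4.3.3 and limma 3.58.1 were used, and the procedure was tested on simulated data.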

Additional observations from a re-analysis of the deposited data

How the results depend on the processing

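No paired analysis was possible because each group had 1 array, and for the same reason no array could be left out. No value past 2-fold changed sign. Below 2-fold, signs changed by more than the between-probe SD under spike-in scaling for *Slfn5* in CRL1505 + LPS against LPS (0.09 to -0.42) and between the strains (0.24 to -0.15), for *Slfn3* between the strains (0.29 to -0.10) and for the median of the neighbouring genes in CRL1505 + LPS (0.20 to -0.31), and for *Slfn5* in CRL1506 + LPS (-0.15) with the mean over probes (0.26) and with uneven spots left out or its RefSeq probe (0.47). Smaller moves across 0 occurred for *Slfn2* and *Slfn8* and the neighbouring median in CRL1506 + LPS, and for *Slfn5* in CRL1505 + LPS. Of 256 values of single Schlafen genes under the alternatives, 208 moved by less than the between-probe SD and 48 by more, of which 28 under the median shift or spike-in scaling. Those settings moved the median over genes above background on both arrays in CRL1505 + LPS against LPS from 0.06 (13141 genes, fewer than the 15467 that include bounds) to 0.35 and to -0.45. Over the main setting and 7 other normalizations the Schlafen median, which includes the bound of *Slfn1*, less that median ran from 0.83 to 0.99. Settings that only shift a whole array, such as the median shift and spike-in scaling, cannot change this difference, which was 0.95 under them by construction. Its narrow range therefore does not measure how far the result depends on scaling. *Slfn5* gave 1.98 by the mean over its probes and 4.04 with uneven spots left out. *Slfn1* gave 3.06 with no filter on dim probes.

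Under the median shift, the Schlafen median was 1.30 in CRL1505 + LPS against LPS and 1.24 against CRL1506 + LPS, where 5 genes were higher. The interferon median was 2.07 in CRL1505 + LPS, with 5 genes higher and 2 lower in CRL1506 + LPS, and the neighbouring genes had a median of 0.50 in CRL1505 + LPS with 7 higher and 1 lower. Under spike-in scaling, the Schlafen median was 0.50 in CRL1505 + LPS against LPS with 1 gene higher, and 0.36 against CRL1506 + LPS with 1 higher, the interferon median was 1.27 with 7 genes higher in CRL1506 + LPS, and the neighbouring genes had a median of -0.31. In the values normalized by the authors, 2 Schlafen genes were higher in CRL1505 + LPS against LPS, the interferon median was 1.52, 1 neighbouring gene was lower for either strain and 2 were higher in CRL1506 + LPS. That last count was also 2 under quantile normalization, cyclic loess and the 75th percentile over detected probes. With normexp, 0 interferon genes were lower in CRL1506 + LPS and 1 neighbouring gene was lower for either strain.

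With no filter on dim probes, 1 interferon gene was lower in CRL1505 + LPS. When a probe had to exceed background on each array, or with uneven spots left out, 0 neighbouring genes were lower for either strain, and the latter gave a Schlafen median of 1.29 in CRL1505 + LPS against LPS. By the mean over probes the interferon median was 1.55 in CRL1505 + LPS. At 1.5-fold, 2 Schlafen genes were higher in CRL1506 + LPS against LPS and 5 in CRL1505 + LPS against CRL1506 + LPS, 30 interferon genes were higher and 2 lower in CRL1506 + LPS, and 7 neighbouring genes were higher in CRL1505 + LPS and 2 in CRL1506 + LPS. At 4-fold, 1 Schlafen gene was higher in CRL1505 + LPS against LPS and 0 against CRL1506 + LPS, 27 interferon genes were higher in CRL1505 + LPS, 1 was higher and 0 were lower in CRL1506 + LPS, and of the neighbouring genes 1 was higher and 1 lower in CRL1505 + LPS and 0 higher and 1 lower in CRL1506 + LPS. The cause was not tested, beyond what the construction of a setting gives. Shares over all genes are given for the main setting at 2-fold only. Counts under the other settings and thresholds stand without such a share, and are not read as a result about the listed genes.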
